A study of Mus musculus with 6 samples.

Results

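A set of 10 regulators of neural gene expression that are known targets of miR-9 or miR-124, or act directly downstream of one, were followed in the rostral telencephalon of mouse embryos from which Dicer, the enzyme that produces mature miRNAs from their precursors, had been deleted, and in controls. The 10 genes, Ptbp1, Ptbp2, Rest, Ctdsp1, Ctdspl, Nr2e1, Meis2, Elavl2, Foxp1 and Foxp2, were taken by symbol from the 55471 genes of the count files, and all 10 were found. RNA-seq counts came from 3 control and 3 Rx-Dicer samples of the rostral-most telencephalic primordium at E11.5. Both groups were homozygous for a floxed Dicer allele, Dicer1tm1Bdh/J, kept on a C57BL/6 background. The Rx-Dicer embryos, labelled RxCre-Dicer F/F, also carried Rx3-Cre, a Cre line of CD1 background active in the early forebrain. The controls, labelled WT, had no Cre and are described in the paper as littermates of the mutants. Rx-Cre recombines most fully in rostral and ventral telencephalon and less in neocortex, so the tissue can hold cells that kept Dicer. The sources used here do not say whether a library is 1 embryo or several, so the p-values measure the spread between these samples only.

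miR-9 and miR-124 are abundant in the developing and mature nervous system, and each pairs through its seed, bases 2 to 8, with sites in the 3′ UTR of target mRNAs, which lowers mRNA level or translation. miR-124 is known for acting on the splicing repressor Ptbp1 and on the phosphatase Ctdsp1, a partner of the repressor REST. miR-9 is known for acting on Nr2e1, Rest, Foxp1, Foxp2 and Meis2. In several of these circuits the miRNAs lower factors that hold cells in a progenitor or non-neuronal state.

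The mature miR-9-5p sequence is shown because its seed defines the sites searched for. RefSeq places the same sequence in 3 hairpins of GRCm38.p6, Mir9-1 at chr3:88215613-88215635, Mir9-2 at chr13:83738821-83738843 and Mir9-3 at chr7:79505279-79505301, all on the plus strand. The seed is in capitals.
miR-9-5p: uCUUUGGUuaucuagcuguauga

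A search of the annotated 3′ UTRs, on the transcript strand only, for the word ACCAAAG, which pairs with this seed, found 9 sites in 6 of the 10 genes. One site per gene is shown with its neighbouring bases, and the capitals mark the match. In Foxp1 the match is the 8-base word ACCAAAGA, which contains the 7-base word and adds an A across from the first miRNA base.
Rest, chr5:77286166-77286188, plus strand: tctgaggcaaACCAAAGgtatat
Ptbp1, chr10:79864007-79864029, plus strand: aaaattttggACCAAAGtttagc
Ptbp2, chr3:119719334-119719356, minus strand: accaggtgggACCAAAGtttatg
Nr2e1, chr10:42562424-42562446, minus strand: aagtgctgaaACCAAAGgccata
Foxp1, chr6:98928263-98928285, minus strand: ttctaaaattACCAAAGAtatta
Foxp2, chr6:15438881-15438903, plus strand: acagctgcaaACCAAAGccaact

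The Rest site lies 3192 bases after the stop codon in both annotated transcripts with a 3′ UTR, and the Ptbp1 site 740 bases after it in all 3. The Ptbp2 site was in 2 of 4 transcripts, the Nr2e1 site in 1 of 2 and the Foxp1 site shown in 2 of 4. Foxp1 held a second site, of 7 bases, and Foxp2 held 3 sites in all, each in 1 or 2 of its 5 transcripts. No such word was found in the annotated 3′ UTRs of Ctdsp1, Ctdspl, Elavl2 or Meis2. The word was present in 15.1% of the 14053 tested genes with an annotated 3′ UTR and the 8-base word in 5.06%. A match is a description of the sequence and not a shown binding site.

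The libraries held 34471501 to 48373468 counts on genes. The targeted gene, Dicer1, had 6355, 7070 and 6270 normalised counts in the controls and 4777, 7002 and 4644 in the Rx-Dicer samples (log2 fold change -0.26 ± 0.17 SE, DESeq2 adjusted p = 0.567). Rx-Dicer 2 stood at the control level of Dicer1. Counts over the whole gene do not show how far the floxed allele had recombined in a sample. Where a call named here changed without Rx-Dicer 2, the value without it is given as well. These values were normalised for library size with the median-of-ratios method, and a gene was called when the DESeq2 Wald test gave it an adjusted p below 0.05 and its change exceeded 1.25-fold. All 10 genes passed the filter on low counts and were tested.

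One of the 10 genes, Rest, was called higher in Rx-Dicer samples, and none was called lower. Among all 17127 tested genes 2.93% were called, 1.75% higher and 1.18% lower. The log2 fold change was above 0 for 7 of the 10 genes and below 0 for 3, with a median of 0.105 and a range from -0.39 to 0.49, against a median of -0.0009 over all tested genes. The 3 Rx-Dicer values lay above all 3 control values for Rest and Ptbp1 and below them for Elavl2, which were also the 3 genes with an unadjusted p under 0.05. Over all tested genes 19.3% had groups that did not overlap, 8.55% with Rx-Dicer above and 10.7% with Rx-Dicer below, and 13.1% had such a p. edgeR's quasi-likelihood test on genes that passed a filter on low counts called none of the 10 genes, and 8 of 17954 genes in all (0.0446%). The same test without the filter called Rest, and 187 of 30928 genes in all (0.605%). In the filtered fit Rest, Ptbp1 and Elavl2 were again the 3 genes with an unadjusted edgeR p under 0.05.

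**Figure D1:**
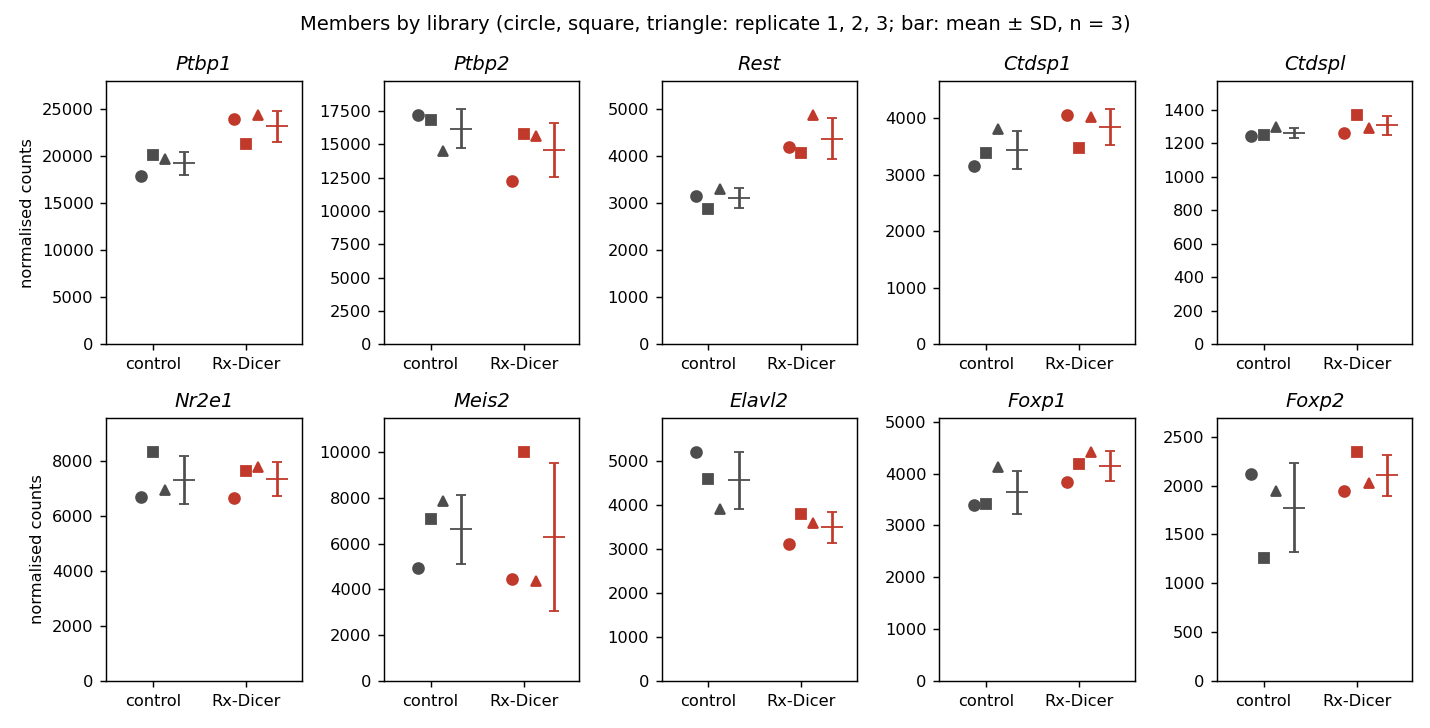
Normalised counts of each of the 10 genes (vertical axes start at 0) in the 3 control and 3 Rx-Dicer libraries, with a bar for the mean ± SD of each group (n = 3). Rest and Ptbp1 are higher in every Rx-Dicer library than in every control, Elavl2 is lower, and the groups of the other 7 genes overlap.

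Rest encodes the zinc finger repressor that keeps neuronal genes silent outside neurons. It had 3149, 2883 and 3290 normalised counts in the control libraries and 4184, 4070 and 4865 in the Rx-Dicer libraries. The lowest Rx-Dicer value was well above the highest control. Rx-Dicer 2, which had Dicer1 at the control level, was above every control for Rest. The mean rose from 3107 ± 206 to 4373 ± 430 (SD, n = 3 each), a 1.41-fold increase (log2 fold change 0.49 ± 0.13 SE, 95% interval 0.25 to 0.74, DESeq2 adjusted p = 0.00791). The call was lost with filtered edgeR (log2 fold change 0.50, adjusted p = 0.134), kept with unfiltered edgeR (0.49, adjusted p = 0.0373), and lost without control 2 (0.44, DESeq2 adjusted p = 0.0725). Over all 15 alternatives the adjusted p of Rest ran from 0.00180 to 0.134. In bulk RNA a change in the number of cells that express a gene and a change in the RNA per cell cannot be told apart.

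Ctdsp1 and Ctdspl encode small phosphatases of the RNA polymerase II tail that REST recruits. Ctdsp1 had 3148, 3376 and 3805 normalised counts in controls, and 4050, 3470 and 4015 in the Rx-Dicer libraries. The groups overlapped, because Rx-Dicer 2 lay below control 3 (log2 fold change 0.16 ± 0.13, 95% interval -0.094 to 0.41, DESeq2 adjusted p = 0.718). Ctdspl was the steadiest of the 10 genes, with 1241, 1249 and 1295 in controls, and 1261, 1367 and 1293 in the Rx-Dicer libraries. Its log2 fold change was 0.050 ± 0.12 with a 95% interval from -0.18 to 0.28 (DESeq2 adjusted p = 0.949). The intervals of both genes leave room for modest changes in either direction.

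Of 9 other components of REST complexes none was called, and their median log2 fold change was -0.0009. The smallest p belonged to Rcor1, the corepressor CoREST, with 2572, 2710 and 2679 normalised counts in controls, and 3136, 3221 and 3327 in the Rx-Dicer libraries (log2 fold change 0.28 ± 0.11, DESeq2 adjusted p = 0.143). Every Rx-Dicer value of Rcor1 was above every control. Its relative Rcor3 came next with a log2 fold change of 0.24 ± 0.15 (DESeq2 adjusted p = 0.544).

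The 28 genes listed as REST targets, neuronal genes with REST-bound elements, had a median log2 fold change of -0.12, with 10 above 0 and 18 below. One was called lower and none higher. Stmn3, a tubulin-binding stathmin of neurons, had 4390, 3851 and 4004 normalised counts in controls, and 3281, 2386 and 2347 in the Rx-Dicer libraries (log2 fold change -0.61 ± 0.16, DESeq2 adjusted p = 0.00791). The call for Stmn3 was not made by filtered edgeR (adjusted p = 0.175) and was made by unfiltered edgeR (adjusted p = 0.0350). It was lost without Rx-Dicer 2 (DESeq2 adjusted p = 0.0553), Rx-Dicer 3 (0.0836) or control 1 (0.0643), and without Rx-Dicer 2 another gene of the list, the granin Scg3, was called lower (log2 fold change -0.63, DESeq2 adjusted p = 0.0481). The next smallest p lay in the other direction, for the granin Scg2, which had 26.9, 23.4 and 17.9 in controls, and 76.3, 40.8 and 40.9 in the Rx-Dicer libraries (log2 fold change 1.22 ± 0.46, DESeq2 adjusted p = 0.143). The summed level of the list, as its share of the total counts (CPM), was 1334 to 1611 CPM in controls and 1068 to 1549 in Rx-Dicer samples. The summed levels of the 12 neuron markers overlapped between groups as well, at 1717 to 2294 and 1489 to 2098 CPM. None of the 12 was called, and their median log2 fold change was -0.17, with 3 above 0 and 9 below. Stmn2 and Tubb3 are in both lists. Whether the number of neurons had a part in the values of the REST targets was not tested.

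Ptbp1 and Ptbp2 encode polypyrimidine tract-binding proteins. Ptbp1 is the form of progenitors and non-neuronal cells, and Ptbp2 the form of young neurons. Ptbp1 had 17897, 20183 and 19720 normalised counts in controls, and 23946, 21306 and 24353 in the Rx-Dicer libraries. All Rx-Dicer values were above all controls. The log2 fold change was 0.27 ± 0.11, with a 95% interval from 0.045 to 0.49, and did not pass the test (DESeq2 adjusted p = 0.228). Without Rx-Dicer 2 it was 0.33 and the gene was called (DESeq2 adjusted p = 0.0334), which made 2 of the 10 genes called higher, where 2.55% of all genes tested in that fit were. The adjusted p of Ptbp1 ran from 0.0334 to 0.464 over the 15 alternatives.

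Ptbp2 had 17175, 16846 and 14496 normalised counts in controls, and 12252, 15789 and 15661 in the Rx-Dicer libraries. Only Rx-Dicer 1 lay below the controls (log2 fold change -0.15 ± 0.14, 95% interval -0.42 to 0.12, DESeq2 adjusted p = 0.775). The ratio of Ptbp1 to Ptbp2, each as a level per transcript length, was 2.02, 2.32 and 2.63 in controls, and 3.78, 2.61 and 3.01 in the Rx-Dicer libraries. This ratio was chosen after its values were seen, and its groups overlapped (exact two-sided permutation test, p = 0.2, where the smallest p that 3 against 3 allows is 0.1). The neuronal transcripts Dlg4 and Gabbr1, in which PTBP1 represses exons, had log2 fold changes of -0.10 ± 0.13 and -0.073 ± 0.15 and neither was called. Gene counts do not show exon use.

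**Figure D2:**
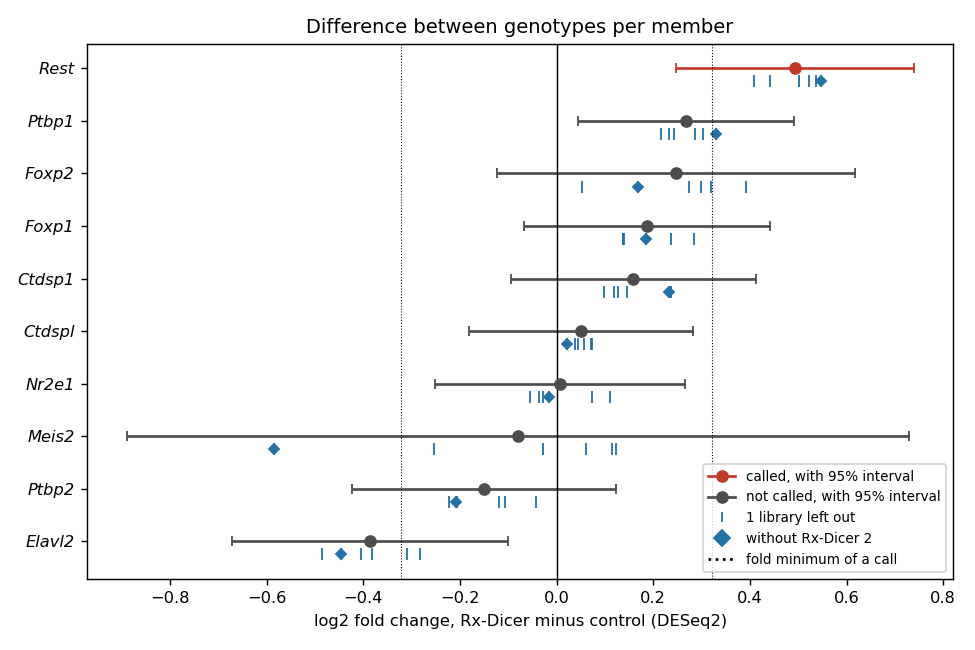
Log2 fold change of each gene, Rx-Dicer minus control, from DESeq2 with its 95% interval, and below it the same value with each library left out in turn (a diamond marks the fit without Rx-Dicer 2, dotted lines the fold minimum of a call). Rest lies at 0.49, Elavl2 at -0.39, and the values of Meis2 spread from -0.58 to 0.12 when 1 library is left out.

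Elavl2 encodes a neuronal RNA-binding protein of the Hu family that stabilises mRNAs in differentiating neurons. It had 5214, 4598 and 3913 normalised counts in controls, and 3108, 3805 and 3589 in the Rx-Dicer libraries. Every Rx-Dicer value was below every control, and control 3 lay close to Rx-Dicer 2. The mean was 4575 ± 651 in controls and 3501 ± 357 in Rx-Dicer samples (SD, n = 3 each), and the log2 fold change of -0.39 ± 0.15 did not pass the test (DESeq2 adjusted p = 0.142). Without control 3 the gene was called (log2 fold change -0.49, DESeq2 adjusted p = 0.0480), and over the 15 alternatives its adjusted p ran from 0.0480 to 0.449. As levels per transcript length (TPM, read counts per base of merged exon, scaled to the same sum in every library) the groups overlapped, with 30.0 to 37.8 in controls and 23.9 to 31.0 in Rx-Dicer samples.

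Elavl3, another neuronal Hu protein and one of the neuron markers, had 8197, 7055 and 7140 normalised counts in controls, and 5691, 6669 and 4500 in the Rx-Dicer libraries (log2 fold change -0.41 ± 0.16, DESeq2 adjusted p = 0.152). Its groups did not overlap in normalised counts and overlapped in TPM, where Rx-Dicer 2 had 65.6 and the controls 61.7 to 71.7, and it was not called. The other paralog singled out by the size of its p was Meis3, with 1714, 1616 and 1793 in controls, and 1308, 1419 and 1306 in the Rx-Dicer libraries (log2 fold change -0.35 ± 0.12, DESeq2 adjusted p = 0.0948). Of 9 paralogs 8 could be tested, none was called and their median log2 fold change was 0.020. Without Rx-Dicer 2, Elavl3 (log2 fold change -0.55, DESeq2 adjusted p = 0.0136) and Meis3 (-0.38, adjusted p = 0.0275) were called lower.

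Meis2, a homeodomain factor of the striatal and olfactory lineages, varied more between libraries than any other of the 10 genes. It had 4947, 7079 and 7855 normalised counts in controls, and 4445, 10001 and 4365 in the Rx-Dicer libraries. Rx-Dicer 2 held the highest value of all 6 libraries, and the other Rx-Dicer samples held the lowest values. The log2 fold change was -0.080 ± 0.41, with a wide 95% interval from -0.89 to 0.73 (DESeq2 adjusted p = 0.982). Without Rx-Dicer 2 it was -0.58 (DESeq2 adjusted p = 0.0814), and without Rx-Dicer 1, Rx-Dicer 3 or control 3 it was above 0.

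The libraries with much Meis2 were those with high levels of genes of the subpallium, the ventral telencephalon. The summed level of 11 subpallial markers was 153, 169 and 339 CPM in controls and 152, 518 and 141 CPM in Rx-Dicer samples. Ordered from highest to lowest, Meis2 and this sum ranked all 6 libraries alike. Meis1, a paralog named after its values were seen, had 438, 419 and 842 normalised counts in controls, and 539, 1289 and 500 in the Rx-Dicer libraries, and was also highest in Rx-Dicer 2 and control 3. The part of the dissected region in the level of Meis2 was not tested.

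**Figure D3:**
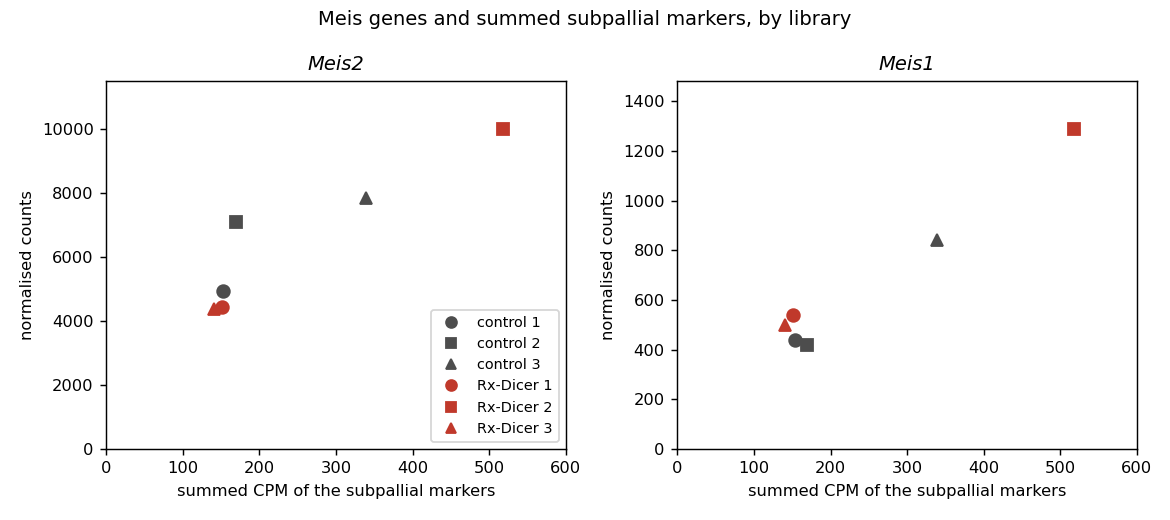
Normalised counts of Meis2 (left) and Meis1 (right) against the summed CPM of the subpallial markers, 1 point per library (both axes start at 0). Rx-Dicer 2 and control 3 stand apart at the upper right for both genes, and the other 4 libraries lie between 141 and 169 CPM.

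Nr2e1 encodes the orphan nuclear receptor TLX, which maintains neural progenitors. It had 6678, 8307 and 6931 normalised counts in controls, and 6633, 7627 and 7763 in the Rx-Dicer libraries, so that the groups covered nearly the same range. The log2 fold change was 0.0070 ± 0.13, with a 95% interval from -0.25 to 0.27 (DESeq2 adjusted p = 0.995), and its sign changed when single libraries were left out. Foxp1 and Foxp2 encode forkhead repressors of projection and striatal neurons. Foxp1 had 3403, 3405 and 4120 in controls, and 3839, 4183 and 4415 in the Rx-Dicer libraries. Control 3 lay within the Rx-Dicer range (log2 fold change 0.19 ± 0.13, 95% interval -0.068 to 0.44, DESeq2 adjusted p = 0.623).

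Foxp2 had 2117, 1259 and 1945 normalised counts in controls, and 1948, 2342 and 2025 in the Rx-Dicer libraries. Control 2 stood well below the other 5 libraries, which overlapped (log2 fold change 0.25 ± 0.19, 95% interval -0.12 to 0.62, DESeq2 adjusted p = 0.680). Without control 2 the log2 fold change of Foxp2 was 0.053.

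TPM values, computed over the merged exons of each gene, set the order of the genes in control tissue. Ptbp1 led with 250 ± 19.7 (SD, n = 3), followed by Nr2e1 with 121 ± 13.3 and Ptbp2 with 108 ± 6.48, whose ranges overlapped. Ctdsp1 had 63.5 ± 8.20, above Meis2 with 33.9 ± 8.50 and Elavl2 with 33.7 ± 3.92, which overlapped. Rest had 26.4 ± 2.48, Foxp1 16.3 ± 2.41 and Ctdspl 14.9 ± 0.837, the last pair with overlapping ranges, and Foxp2 was lowest with 6.67 ± 1.76. By mean normalised count in controls, the 10 genes lay between percentile 60.6 (Ctdspl) and 98.3 (Ptbp1) of the tested genes, so depth did not limit their detection.

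Rest and Elavl2 changed places between genotypes on this scale. In controls Elavl2 ran from 30.0 to 37.8 and Rest from 24.1 to 29.0, while in Rx-Dicer samples Rest ran from 37.2 to 38.2 and Elavl2 from 23.9 to 31.0. The ranges of the 2 genes did not overlap in either genotype. This exchange was seen in the data and was not tested.

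**Figure D4:**
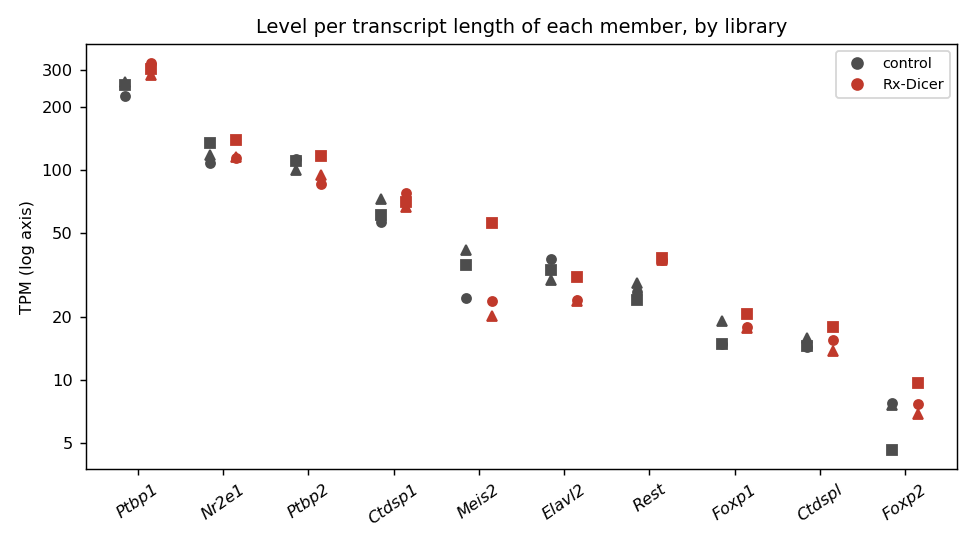
Level per transcript length of each gene in each library, in TPM on a log axis, ordered by the control mean. Ptbp1 is the highest in both genotypes and Foxp2 the lowest, and Rest lies below Elavl2 in controls and above it in Rx-Dicer samples.

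Other genes reported as targets of the same miRNAs were counted for comparison, in lists chosen with earlier results of these data known. Over all tested genes 1.75% were called higher and 1.18% lower. Of 12 other reported miR-9 targets 3 were called higher and none lower, with a median log2 fold change of 0.069. Onecut2, a transcription factor of retinal and motor neuron lineages, rose from 237, 121 and 144 to 1414, 554 and 1156 normalised counts (log2 fold change 2.64 ± 0.31, DESeq2 adjusted p = 7.75e-14). Onecut1 rose from 13.4, 2.04 and 4.70 to 113, 23.4 and 52.3 (log2 fold change 3.27 ± 0.71, DESeq2 adjusted p = 7.96e-04). Onecut1 had no adjusted p, and so no call, without Rx-Dicer 1, without Rx-Dicer 3 or with the first file alone. Its log2 fold changes there were 2.52, 3.38 and 3.63. The cyclin Ccng1, which is also a classical p53 target, rose from 2020, 1645 and 1647 to 6134, 3410 and 5903 (log2 fold change 1.54 ± 0.20, DESeq2 adjusted p = 8.66e-11). In all of these the value of Rx-Dicer 2 was the lowest of its group and still above every control. Filtered edgeR called none of them and unfiltered edgeR called all 3. In fits without 1 library a further gene was called lower, Gsx2 without Rx-Dicer 2 (log2 fold change -1.78, DESeq2 adjusted p = 0.00228) and Cdh1 without control 2 (-1.80, adjusted p = 5.77e-08). Gsx2 is also among the subpallial markers, whose sum was highest in Rx-Dicer 2. With all libraries its log2 fold change was -0.18 (DESeq2 adjusted p = 0.983), and it was above 0 without Rx-Dicer 1, Rx-Dicer 3 or control 3.

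Of 17 other reported miR-124 targets 2 were called higher and 2 lower, with a median log2 fold change of 0.15 and 13 values above 0. The sialomucin Cd164 (log2 fold change 0.58 ± 0.12, DESeq2 adjusted p = 5.36e-04) and the cell cycle kinase Cdk6 (0.75 ± 0.23, adjusted p = 0.0455) rose. The ephrin Efnb1 (-0.59 ± 0.12, adjusted p = 4.34e-04) and the progenitor factor Sox9 (-0.52 ± 0.14, adjusted p = 0.0140) fell. Filtered edgeR called none of the 4 genes, and unfiltered edgeR called Cd164, Efnb1 and Sox9. The call of Cdk6 was lost in 5 of the 6 fits that left out 1 library, with a DESeq2 adjusted p of 0.0761 without Rx-Dicer 2, where Itgb1 was called higher (log2 fold change 0.43, adjusted p = 0.00704). The call of Sox9 was lost without control 2 or control 3. Groups did not overlap for 8 of the 17, with Rx-Dicer higher in 6 and lower in 2. Over all tested genes 19.3% had groups that did not overlap, and 2.93% were called. The BAF chromatin remodelling subunits that are exchanged as progenitors become neurons, 7 in all, included no call and had a median of 0.015. The smallest p values among them belonged to Dpf1 (log2 fold change -0.31 ± 0.17, DESeq2 adjusted p = 0.459) and Phf10 (0.093 ± 0.12, DESeq2 adjusted p = 0.874).

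**Figure D5:**
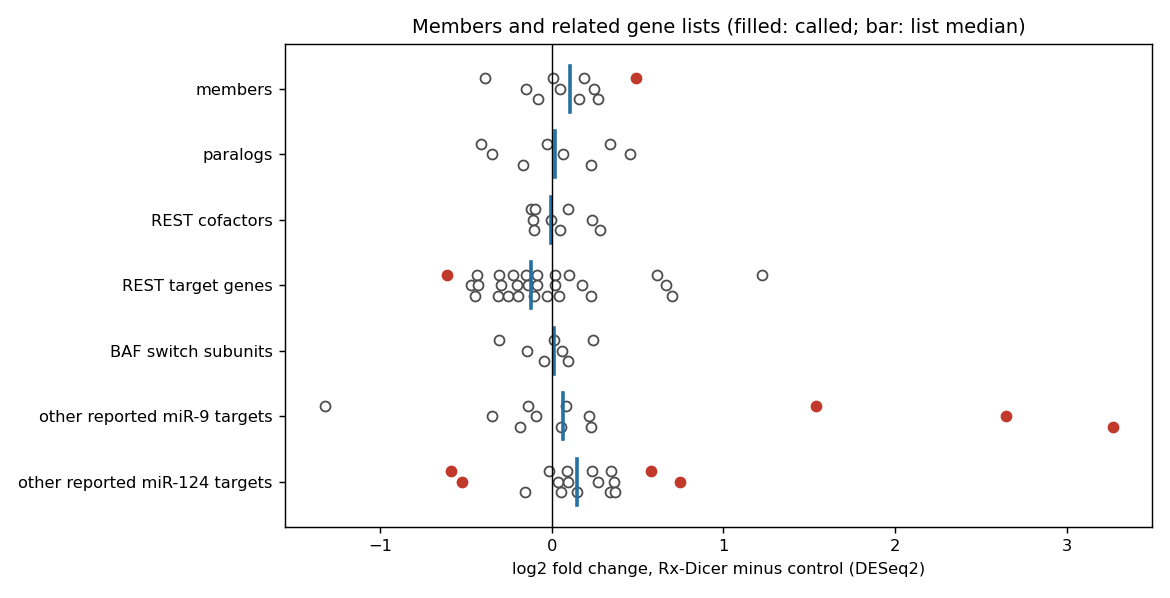
Log2 fold change, Rx-Dicer minus control, of the 10 genes and of 6 related lists, 1 point per tested gene, with called genes filled and the median of each list as a bar. Called genes are Rest among the 10, Stmn3 among REST targets, 3 miR-9 targets to the right and 4 miR-124 targets on both sides.

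Host transcripts of the miRNA precursors were looked up by 7 symbols, some of which may be other names of the same gene, and 4 were found. Mir9-3hg fell from 4847, 5078 and 3507 normalised counts in controls to 2975, 3026 and 2827 in Rx-Dicer samples (log2 fold change -0.61 ± 0.15, DESeq2 adjusted p = 0.00802). It was not called by filtered edgeR (adjusted p = 0.172) and was called by unfiltered edgeR (adjusted p = 0.0329), and the call was lost without Rx-Dicer 3, control 1 or control 2 (DESeq2 adjusted p = 0.0752, 0.0636 and 0.136). The transcripts C130071C03Rik, Mir124a-1hg and Mir124-2hg had log2 fold changes of -0.22 ± 0.17, 0.16 ± 0.58 and -0.14 ± 0.22 and were not called. Without Rx-Dicer 2, Mir124-2hg was called lower (log2 fold change -0.50, DESeq2 adjusted p = 0.00758).

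The 10 genes were also set beside all genes with a miR-9 site in their 3′ UTR. The 711 tested genes with the 8-base word had a median log2 fold change of 0.12, and 7.31% of them were called higher and 0.703% lower. The 14053 genes with a 3′ UTR had a median of 0.0082, with 2.07% called higher and 1.20% lower. The 2119 genes with at least the 7-base word, which include the 711, had a median of 0.088, with 4.81% called higher and 0.613% lower. All 6 genes with a site are among the 2119. In 5 of the 6 the longest match is the 7-base word, a class that was not summarised apart from the 8-base word. Genes with no 7-base word had a median of -0.0057, with 1.58% called higher and 1.30% lower. Genes with the 8-base word had longer 3′ UTRs, with a median of 2628 bases against 1050 in genes with no site. In 4 bins of 3′ UTR length, from short to long, the medians with and without a 7-base site were 0.033 and -0.078, 0.024 and -0.013, 0.071 and 0.020, and 0.12 and 0.060. Among the 10 genes, the 6 with a site had a median log2 fold change of 0.22, with 5 above 0, and the 4 without had a median of -0.015, with 2 above 0. Rest, the called gene, was among the 6, and so was Ptbp2 at -0.15. miR-124 sites were not searched for, so a gene counted here as without a site is without a miR-9 site only.

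Cell type markers that moved between genotypes were counted to set beside these values. Summed hypothalamic and optic markers did not overlap, with 13.2 to 18.6 CPM in controls and 28.1 to 28.9 in Rx-Dicer samples. Of these 8 genes 6 could be tested, and Otp and Foxd1 were called higher. Among all tested genes 1.75% were called higher and 1.18% lower. Microglial markers were 23.1 to 27.4 CPM in controls and 27.6 to 90.3 in Rx-Dicer samples, with Csf1r and Cx3cr1 of 6 genes called higher. Summed progenitor markers overlapped, with 4743 to 4877 CPM in controls and 4163 to 5074 in Rx-Dicer samples. Of these 10 genes 4 had a log2 fold change above 0 and 6 below, and Pax6 and Fabp7 were called lower. The pallial marker Eomes was called lower and the interneuron factor Lhx6 higher. Filtered edgeR called no marker, and unfiltered edgeR did not call Foxd1, Csf1r, Cx3cr1, Pax6 or Fabp7. Among the 6 fits that left out 1 library, the call of Csf1r was lost in 5. The calls of Cx3cr1, Fabp7, Eomes and Foxd1 were lost in 4 each, and that of Pax6 in 1. Otp had no adjusted p without Rx-Dicer 1 or Rx-Dicer 3. Without Rx-Dicer 2 the calls of Fabp7, Eomes and Foxd1 were lost (DESeq2 adjusted p = 0.226, 0.0812 and 0.0958). In that fit all 6 microglial markers were called higher (DESeq2 adjusted p from 9.63e-07 to 0.00431), where 2.55% of all genes tested were. The progenitor marker Nes was called lower in it (log2 fold change -0.57, DESeq2 adjusted p = 0.00450). Mesenchyme, endothelial and erythroid markers included no call, and no marker list had a gene at 0 in all libraries. The part of these cell types in the level of Rest was not tested.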

How the data were processed

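RNA-seq was analysed from 3 control and 3 Rx-Dicer samples, grouped by the genotype in the labels. The authors deposited raw read counts per gene. Per their methods and processing notes, they trimmed reads with Trim Galore 0.6.5, aligned them to GRCm38.p6 with HISAT2 and counted them per Ensembl gene with HTSeq 0.12.4 (union mode, reverse strand). Reads with several alignments or genes were tallied apart. Rows that name no gene held 24.9 to 31.0% of tallied reads and were left out.

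Each sample had 2 files. Chi-square per degree of freedom between them was 1.13 to 1.52, against 22.5 to 32.6 between samples of a group, so they were summed as repeat runs. A floor of 3 counts was 0.0620 to 0.0870 CPM, which covers counting error only, since the reads carry no molecular identifiers and may be copies of the same molecule.

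Genotypes were compared across all genes with the DESeq2 1.42.0 Wald test (R 4.3.3, unshrunken log2 fold change, Benjamini-Hochberg adjustment with independent filtering). edgeR 4.0.16, with TMM factors on genes of at least 10 counts in 3 samples (filtered edgeR), was the first alternative, also run without that filter (unfiltered edgeR). The others were other scalings and filters, single files, a replicate block, other thresholds and leaving out each sample. Fits were tested on simulated data. 3′ UTRs were the exon bases after the stop codon of GENCODE M21 protein-coding transcripts, where 55230 of 55471 identifiers were found. The longest 3′ UTR of a gene gave its length.

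The genes and lists, from general knowledge, were chosen with earlier results of these data known. Genes named were the 10 members, Dicer1, the called genes of each list or, with under 2 calls, the 2 with the smallest p, the PTBP1-repressed transcripts and the host genes. Genes called only when a library was left out, and Meis1, were named after their values were seen. The small RNA libraries were not analysed here, so these values do not show whether mature miR-9 or miR-124 was lower in Rx-Dicer samples.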

Additional observations from a re-analysis of the deposited data

How the results depend on the processing

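Over the 15 alternatives, 138 of 150 log2 fold changes of the 10 genes kept their direction and their side of the threshold. Leaving out 1 library gave 0.22 to 0.33 for Ptbp1, 0.41 to 0.55 for Rest, -0.49 to -0.28 for Elavl2, -0.055 to 0.11 for Nr2e1 and -0.58 to 0.12 for Meis2. Rest was no longer called with filtered edgeR (0.50), though it was with unfiltered edgeR (0.49), or without control 2 (0.44). Ptbp1 was called without Rx-Dicer 2 (0.33) and Elavl2 without control 3 (-0.49). Nr2e1 turned to -0.0053 with the first file alone, -0.016 without Rx-Dicer 2, -0.036 without Rx-Dicer 3, -0.055 without control 1 and -0.029 without control 3. Meis2 turned to 0.11 without Rx-Dicer 1, 0.12 without Rx-Dicer 3 and 0.062 without control 3. The cause of these changes was not tested.

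With filtered edgeR 0 genes were called higher among the 10, 0 REST targets lower, 0 miR-9 targets higher, and 0 miR-124 targets higher and 0 lower. Unfiltered edgeR gave 1 of the 10 genes higher, 1 REST target lower, 3 miR-9 targets higher, and 1 miR-124 target higher and 2 lower. Leaving out 1 library gave 0 to 2 of the 10 genes called higher and 0 to 1 lower. For paralogs it gave 0 to 1 higher and 0 to 2 lower (2 without Rx-Dicer 2). It gave 0 to 2 REST targets lower. For miR-9 targets it gave 2 to 3 higher and 0 to 1 lower (1 without Rx-Dicer 2 or control 2). For miR-124 targets it gave 1 to 2 higher and 1 to 2 lower. The higher miR-124 targets numbered 4 with the filter on low counts, 1 without independent filtering and 4 at an adjusted p under 0.1, where 1 paralog was called lower. The median of genes with a miR-9 site was 0.088 with 7-base sites in place of 8-base sites. Over all genes DESeq2 called 502, filtered edgeR 8, unfiltered edgeR 187, DESeq2 without independent filtering 322, with the replicate block 314, without Rx-Dicer 3 309 and without control 2 286. Standard errors of the log2 fold changes of the 10 genes ran from 0.11 for Ptbp1 to 0.41 for Meis2.

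The paper calls the controls littermates, but the labels do not say whether the replicate numbers shared by the genotypes pair the samples. Same-numbered samples had deviations that correlated at 0.287, -0.0147 and -0.264 over 14165 genes. Differently numbered samples had correlations from -0.270 to 0.312, so with 3 samples per genotype these values cannot decide it. With the replicate block Rest had a log2 fold change of 0.49 (DESeq2 adjusted p = 0.0134) and 1 of the 10 genes was called, and the block changed no call among the 10.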
